A study of Mus musculus with 42 samples.

Results

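Kinesins and tubulins are the motors and the tracks of the microtubule cytoskeleton, and their mouse genes were followed through testes and brain that lack the cap methyltransferase PCIF1. The genes were taken by name, as every protein-coding gene whose symbol begins with Kif or with Tuba, Tubb or Tubg followed by a digit. This gave 56 genes among the 50765 genes of the brain table and 54 among the 27409 genes of the testes table. The 54 were shared, and Tubb4a and Tubg2 were measured in the brain only. For brain, 39 of the genes carried kinesin names and 17 were tubulins, of which 7 were alpha, 8 beta and 2 gamma. For testes the numbers were 39 and 15, with 7 alpha, 7 beta and 1 gamma tubulin. Kif1bp carries a kinesin name and encodes a protein that binds kinesins, not a motor.

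PCIF1 methylates the adenosine that directly follows the mRNA cap, producing m6Am. The study removed it with an 89 bp Cas9 deletion in exon 15 and intron 16 of Pcif1, which takes away catalytic residues and introduces an early stop codon. Founder embryos were B6D2F1/J hybrids of C57BL/6J and DBA/2J, and founders were bred to C57BL/6J. All KO animals come from 1 deletion line. In testes, m6Am-Exo-Seq enriches capped RNA ends and precipitates them with an antibody that binds both m6A and m6Am, and it gave 3 IP and 3 input libraries of adult Pcif1 KO mice and 3 IP and 3 input libraries of adult heterozygotes (HET), so that the controls there still carried the deletion on 1 allele. In brain, ribosome footprinting gave 3 footprint and 3 input libraries of adult KO mice and the same numbers of adult wild-type (WT) mice. All levels are given as the deposited signal, that is, reads per gene scaled by library and not by gene length, so levels are compared between libraries for 1 gene and not between genes.

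Microtubules are hollow polymers of alpha and beta tubulin heterodimers, and gamma tubulin seeds them. Kinesins are ATP-driven motors that carry vesicles, organelles and flagellar cargo along microtubules or, in the kinesin-13 group, take the polymer apart at its ends. In testis these proteins build meiotic spindles, the manchette that shapes the spermatid head and the sperm tail, and in brain they serve axonal and dendritic transport.

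Since m6Am forms on a first-transcribed adenosine, the annotated starts of the genes that differed between IP and input in HET testes are given here with 15 bases before the start and 15 from it. RefSeq (GRCm38.p6) starts are printed for 10 of these 13 genes. Kif5b, Kif20a and Kif21b are not printed, and their start bases are not in the count below the sequences. The start base is in capitals, and each sequence reads 5′ to 3′ on the strand of the gene. The first 5 lines are genes higher in the IP, namely Kif5c at chr2:49619271-49619300 (+), Kif14 at chr1:136467833-136467862 (+), Kif22 at chr7:127042406-127042435 (-), Tubb4b at chr2:25224688-25224717 (-) and Tuba3a at chr6:125286067-125286096 (-). The other lines are genes lower in the IP, namely Kif17 at chr4:138262236-138262265 (+), Kif1c at chr11:70700533-70700562 (+), Tuba4a at chr1:75219280-75219309 (-), Tubb3 at chr8:123411538-123411567 (+) and Kif1b with starts at chr4:149307684-149307713 (-) and chr4:149307719-149307748 (-).
Kif5c: tgccgaggcggggcaGaggggcgggcctgg
Kif14: tttcattttttgtagTcggccagatatttt
Kif22: caaaagagagaagcgGgccgaagaagggaa
Tubb4b: tcctgtgctgacgagGgcgggtcataagag
Tuba3a: ggccaatgagccccgGcctggactccacat
Kif17: agctccggggctcggGtcgtgcggcggcgc
Kif1c: ggccgctggcgccgcTtctgctgccgcccc
Tuba4a: tgagcgcgcaggtccCgcctcctgcctata
Tubb3: cggaggctgccgatcCtccgcagcctgctg
Kif1b: gagcagcgtcgcggtGtagtcagacggcag
Kif1b: gtgtcccgcgccggcGgcttcgggcggagt
None of these 11 annotated starts is an adenosine: 7 are G, 2 are T and 2 are C. Across the 45 of 56 kinesin and tubulin genes that matched RefSeq, 10 of 49 starts (20.4%) are A, against 34.4% of all 32851 starts in the table. An annotated start is not a measured one, and no start was measured here.

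The testes libraries held 1816831 to 4364847 reads in KO IP, 2689591 to 6574479 in HET IP, 4151226 to 4971554 in KO input and 4224175 to 4907380 in HET input. The brain libraries held an estimated 13613498 to 15497139 reads in KO footprints, 13981620 to 16559686 in WT footprints, 5528738 to 16206024 in KO input and 15171376 to 17443749 in WT input. Pcif1 signal was 254, 201 and 259 in KO brain inputs, against 253, 318 and 388 in WT brain inputs, and at most 10.4 in any testes library. A deletion of 89 bp leaves most of the transcript countable, so this gene does not check the genotype labels. WT footprint replicate 2 stood apart from the other WT footprint libraries. In it the lincRNA AY036118 was listed at 0, as in the 3 KO footprint libraries, whereas that gene held 25.8% of the signal of WT replicate 1 and 13.9% of that of replicate 3. Ribosomal RNA and AY036118 together held 67.6 to 72.6% of the signal of KO footprints and 72.6 to 75.7% of that of WT footprints. Defining markers of 6 brain and 6 testis cell types were detected in their tissues, with Nanos2 and Hsd3b1 not analysed. The labels say that brain libraries come from separate mice and are not explicit for the testes IP, where the spread behind each p-value may be technical.

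The kinesin and tubulin genes took 0.257 to 0.278% of the protein-coding signal of KO testes inputs, against 0.282 to 0.297% in HET inputs, and 1.27 to 1.40% in KO brain inputs, against 1.33 to 1.40% in WT inputs. A gene was tested when its signal reached 10 in at least 3 libraries of a fit. This left 40 of the 54 genes tested in testes and 42 of the 56 in brain, with 31 tested in both. The untested ones differ by tissue. In testes they included the alpha tubulins Tuba1a, Tuba3b and Tuba8, the beta tubulins Tubb1, Tubb2a, Tubb2b and Tubb6 and the neuronal kinesin-2 motor Kif3c, with no signal above 15.4. In brain they were Tuba3a, Tuba3b, Tubb1 and 11 kinesins, among them the mitotic motors Kif14, Kif18a, Kif18b, Kif20a, Kif20b, Kif23 and Kif4 and the kinesin-13 members Kif2b and Kif2c, with no signal above 28.9.

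In HET testes, where PCIF1 is present, 5 of 40 tested genes were higher in IP than in input and 8 were lower, by limma on log2(signal + 1) with Benjamini-Hochberg (BH) adjusted p below 0.05. Over all 12387 genes tested 14.7% were higher and 15.4% lower (30.1% in either direction), so the genes stood near the background, and their median log2 fold was -0.19 against 0.02 for all genes. The higher genes were Kif5c, Kif14, Kif22, Tubb4b and Tuba3a. The lower genes were Kif1b, Tubb3, Kif21b, Kif20a, Tuba4a, Kif1c, Kif5b and Kif17.

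Kif5c, a heavy chain of kinesin-1, the conventional axonal transport motor, had IP signals of 46.2, 26.8 and 30.4 in HET testes, against input signals of 7.91, 13.9 and 15.1. All 3 IP values lay above all 3 inputs, a log2 fold of 1.42 (SE 0.42, limma BH-adjusted p = 0.018). How many of all genes separate IP from input in this way was not counted, here and for the genes below. Kif14, a motor of the spindle midzone and cytokinesis, had 92.5, 26.1 and 43.8 in HET IP and 17.4, 16.6 and 19.9 in HET input (log2 fold 1.36, SE 0.38, limma BH-adjusted p = 0.0125). Its IP values also lay above its inputs, with 1 IP library far above the other two. Without HET IP replicate 1, the highest library for both, limma BH-adjusted p was 0.0686 for Kif5c and 0.061 for Kif14, and without HET input replicate 1 it was 0.0878 for Kif5c.

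Kif22, a chromosome-arm motor of the spindle, had 251, 334 and 253 in HET IP and 162, 199.5 and 178 in HET input (log2 fold 0.62, SE 0.17, limma BH-adjusted p = 0.01). It was also higher in KO IP, at 274, 302 and 316 against 159, 211 and 180.0 in KO input (log2 fold 0.70, SE 0.17, limma BH-adjusted p = 0.00287). The IP and input values of Kif22 did not overlap in either genotype. The HET call was lost without HET input replicate 1, at a limma BH-adjusted p of 0.0517. Tuba3a, an alpha tubulin of the testis, and Tubb4b, a beta tubulin of cilia and flagella, had smaller HET folds of 0.51 and 0.54, and their calls were lost in 8 and 14 of 22 alternative settings.

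Of the 8 genes lower in HET IP, Kif1b, Tubb3, Kif21b, Tuba4a and Kif1c were lower in KO IP also. Kif1b, a kinesin-3 motor that carries mitochondria and synaptic vesicle precursors, had 98.8, 167 and 195 in KO IP and 447, 549.7 and 479 in KO input, and 166, 180.2 and 185 in HET IP and 520.2, 529 and 607 in HET input. Its log2 folds of IP over input were -1.72 in KO (limma BH-adjusted p = 6.5e-06) and -1.63 in HET (limma BH-adjusted p = 2.4e-05). Every IP value of Kif1b lay below every input value in both genotypes. Kif21b, a kinesin-4 motor that pauses microtubule growth, had log2 folds of -0.97 in KO and -1.35 in HET, and Tuba4a, an alpha tubulin without the usual genome-encoded C-terminal tyrosine, -1.28 in KO and -1.03 in HET. The calls of Kif1b, Kif21b, Tuba4a and Kif5b in HET held in every alternative. Those of Kif17, Kif20a and Tubb3 were each lost on leaving out any of 9, 8 and 4 of the 12 libraries, and that of Kif1c without HET input replicate 3 (limma BH-adjusted p = 0.0633).

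In KO testes 2 of 40 genes were higher in IP than input and 9 were lower, where 21.2% and 24.3% of all genes were (45.5% in either direction). Kif27, a kinesin-4 relative required for motile cilia, was higher with 429.6, 487 and 280.2 in KO IP and 178, 143 and 130.1 in KO input (log2 fold 1.37, limma BH-adjusted p = 0.000924). In HET its IP held 391, 152 and 267 and its input 126, 159 and 163, and these overlap. The lower genes were Tuba1b, Kif1b, Kif13b, Tubb3, Tuba4a, Kif21b, Kif1c, Kif15 and Kif1bp. Kif13b, a kinesin-3 motor, had 29.9, 39.6 and 82.9 in KO IP and 123, 143 and 160.4 in KO input (log2 fold -1.59, limma BH-adjusted p = 0.000341). Tuba1b, with the largest fold (-2.55), had IP signals of 8.98, 0 and 7.21 in KO. All of these lay below the filter of 10, so in KO only the inputs could help it pass. A lower call was thus favoured by the filter, and the size of this fold is not well measured. It ran from -3.15 to -1.49 over the alternatives. Since Tuba1a, Tuba1b and Tuba1c are near-identical, reads of Tuba1b may belong partly to the others. The KO calls of Kif15, Kif1bp, Kif1c and Tubb3 were each lost on leaving out any of 9, 8, 4 and 3 of the 12 libraries, and the other 7 held in every alternative.

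**Figure D1:**
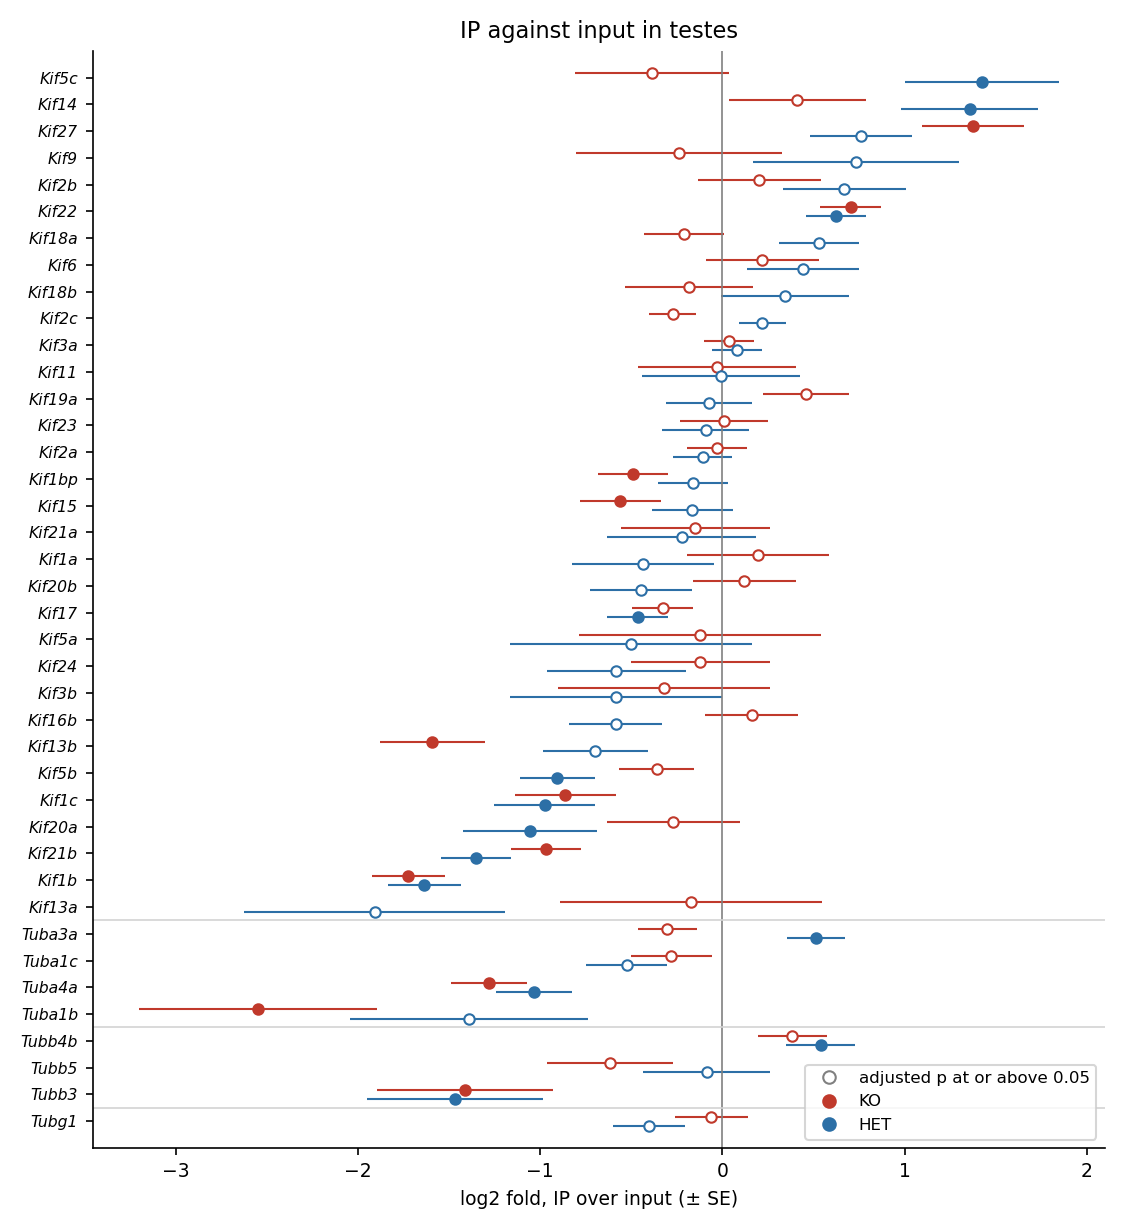
The log2 fold of IP over input in testes is plotted for the 40 tested kinesin and tubulin genes, KO in red and HET in blue, with bars for the SE of the limma fit and filled symbols for a BH-adjusted p below 0.05. Grey lines part kinesins, alpha, beta and gamma tubulins; Kif5c and Tuba3a lie right of 0 in HET and left of 0 in KO, while Kif1b lies at -1.72 in KO and -1.63 in HET.

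The comparison that bears on PCIF1 itself is the difference of the IP-over-input fold between genotypes, KO minus HET. Signal is scaled by library, and the median difference over all genes was -0.01. A change shared by most genes would therefore not show, only departures from the typical gene. Of 40 kinesin and tubulin genes, 1 was lower in KO and 0 were higher, against 6.25% lower and 3.72% higher among all genes (9.97% in either direction), and at an unadjusted p below 0.05 there were 5 of 40, against 3289 of all 12387 genes. The gene called was Tuba3a (ENSMUSG00000067702, chromosome 6). Its IP signals were 358, 346 and 482 in KO testes, against 516, 716 and 683 in HET testes. Its inputs were 455, 475 and 517 in KO, against 447, 473 and 409 in HET. Every KO IP value thus lay below every HET IP value while the inputs overlapped. The share of all genes with such a gap was not counted. The log2 fold of IP over input was -0.30 in KO and 0.51 in HET, a difference of -0.82 (SE 0.23, limma BH-adjusted p = 0.0334).

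The difference of Tuba3a kept its sign in all 21 alternatives, with log2 values of -0.97 to -0.73, and its call in 8 of them. It was lost on leaving out any of 10 of the 12 libraries, at limma BH-adjusted p of 0.0528 to 0.0875, and kept without HET IP replicate 1 (0.00875) or KO IP replicate 3 (0.013). On the whole reads behind the signal, edgeR gave an adjusted p of 0.0393 and DESeq2 0.00941. In the authors' deposited table it stands at a log2 fold of -0.81 with an adjusted p of 0.00761. There 2 of the 39 kinesin and tubulin genes with an adjusted p, Tuba3a and Kif2c, lie below 0.05, against 1754 of all 10929 genes. Tuba3a and Tuba3b encode the same testis-enriched alpha tubulin protein, so their reads may be shared; Tuba3b itself had no signal above 15.4 in testes.

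Kif5c had the largest negative difference of the group, -1.81 (SE 0.60), and missed the threshold at a limma BH-adjusted p of 0.0652. Its IP signals were 19.5, 6.61 and 8.11 in KO, against 46.2, 26.8 and 30.4 in HET, which do not overlap. Its inputs were 12.4, 18 and 11.5 in KO, against 7.91, 13.9 and 15.1 in HET, and these do overlap. The share of all genes whose IP values do not overlap was not counted, which also limits Kif5b and Kif2c below. A read is worth 1.50, 2.20 and 0.901 units of signal in the 3 KO IP libraries, so the KO values rest on few reads. Between the IP libraries alone Kif5c fell by 1.62 on the log2 scale in KO (SE 0.48, limma BH-adjusted p = 0.0242). The difference between genotypes passed only without KO IP replicate 1, at -2.24 with a limma BH-adjusted p of 0.0213.

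The other kinesin-1 heavy chains did not follow Kif5c. Kif5b, the ubiquitous one, had 65.9, 90.3 and 75.7 in KO IP, against 40.3, 45.1 and 33.9 in HET IP, and 96.6, 112 and 89.2 in KO input, against 83, 73.9 and 68.5 in HET input. Its KO values lay above its HET values in both kinds of library, and the IP difference was called (log2 fold 0.94, SE 0.29, limma BH-adjusted p = 0.0292). Its difference of IP over input, 0.54, had a limma BH-adjusted p of 0.245. Kif5a, the neuronal chain, had 55.4, 6.61 and 27.9 in KO IP, against 2.98, 24.2 and 13.4 in HET IP, a spread too wide for a call (difference of IP over input 0.38, limma BH-adjusted p = 0.839).

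Between the IP libraries, KO against HET, 1 of 37 genes rose and 3 fell, against 11.5% and 14.8% of all genes (26.3% in either direction), and the median log2 fold was -0.14 against 0.01 for all genes. The fallers were Kif5c, Tuba3a and Kif2c, and Kif5b rose. Kif2c, a kinesin-13 that depolymerises microtubules at kinetochores, had 386, 389.8 and 417 in KO IP, against 661, 677 and 575 in HET IP. These do not overlap (log2 fold -0.68, SE 0.18, limma BH-adjusted p = 0.0161), and the inputs, at 517, 462 and 466 in KO against 515, 612 and 517 in HET, do. Its difference of IP over input was -0.49 (limma BH-adjusted p = 0.096), which in the authors' deposited table has an adjusted p of 0.0456. Kif2c kept its IP call without any of the 6 libraries. Kif5b lost its call without HET replicate 3 (0.121), KO replicate 2 (0.0873) or KO replicate 3 (0.0703). Kif5c lost its IP call without HET replicate 1 (0.0841) or 3 (0.0752) or KO replicate 2 (0.0576) or 3 (0.0651). Tuba3a did so without HET replicate 2 (0.0674) or 3 (0.113) or KO replicate 1 (0.088) or 2 (0.0922), all limma BH-adjusted p.

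**Figure D2:**
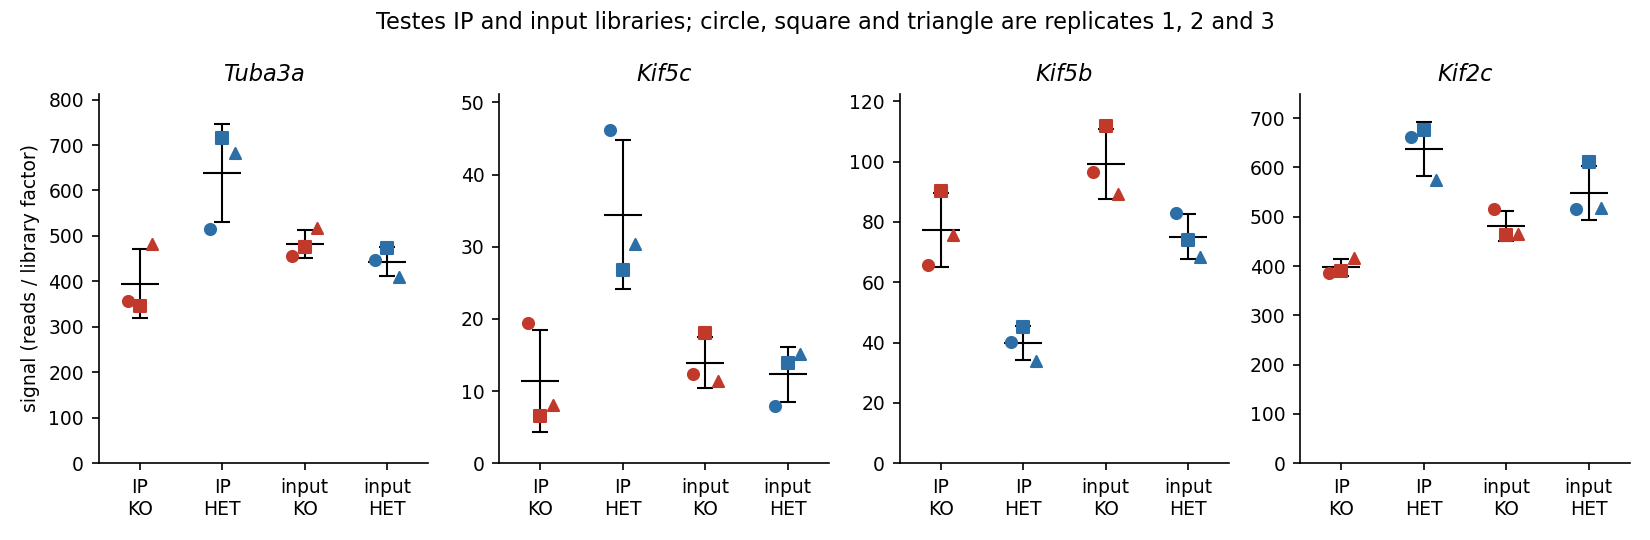
Signal of Tuba3a, Kif5c, Kif5b and Kif2c is plotted for each testes library, KO in red and HET in blue, with the mean and SD of 3 libraries in black. Tuba3a, Kif5c and Kif2c lie lower in KO IP than in HET IP with inputs that overlap, and Kif5b lies higher.

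In testes input RNA, 2 of 39 genes were higher in KO and 3 lower, against 3.32% and 6.01% of all genes (9.33% in either direction), and the median log2 fold was -0.03 against -0.00 for all genes. Tubb5 and Kif1c rose, and Tubb4b, Kif17 and Kif1bp fell. In a bulk tissue such as this, fewer cells of a type and less RNA per cell cannot be told apart.

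Tubb4b (ENSMUSG00000036752, chromosome 2), the beta tubulin of axonemes, had 607, 600.0 and 650.4 in KO inputs, against 840.4, 886 and 832 in HET inputs. The groups were far apart with little spread in either, and the log2 fold was -0.46 (SE 0.08, limma BH-adjusted p = 0.00453). Tubb5, the broadly expressed beta tubulin of dividing cells, went the other way, with 69.1, 83.2 and 90 in KO and 53.8, 48 and 41.4 in HET (log2 fold 0.75, SE 0.17, limma BH-adjusted p = 0.0194). The third beta tubulin tested, Tubb3, had 40.8, 50.2 and 57.3 in KO and 33.2, 39.7 and 35.8 in HET, without overlap and without a call (log2 fold 0.43, limma BH-adjusted p = 0.19).

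The called genes with kinesin names included Kif17, a kinesin-2 that in spermatids binds the transcriptional co-activator ACT and in neurons carries receptors into dendrites. Kif17 had 911, 724 and 759 in KO inputs, against 941, 1022 and 1063 in HET inputs. The highest KO library came close to the lowest HET library, and the log2 fold was -0.34 (SE 0.10, limma BH-adjusted p = 0.04). Kif1bp had 249, 219 and 224 in KO and 297, 292 and 306 in HET (log2 fold -0.37, SE 0.10, limma BH-adjusted p = 0.0351). Kif1c, a kinesin-3 motor of Golgi and integrin transport, had 111, 122 and 130.1 in KO and 68.8, 78.5 and 90.8 in HET (log2 fold 0.61, SE 0.15, limma BH-adjusted p = 0.0224). None of these 3 genes overlapped between genotypes, but the share of all genes without overlap was not counted. Kif3a, the kinesin-2 motor of flagellar transport, had 415, 453 and 442 in KO and 458, 480.4 and 495 in HET, without overlap and with a limma BH-adjusted p of 0.373. Kif2a, abundant in testes, had 2595, 3095 and 3088 in KO and 3769, 3265 and 3329.6 in HET, also without overlap or call (log2 fold -0.24, limma BH-adjusted p = 0.0983). Kif9, a motor of the sperm flagellum, Kif11, the spindle bipolarity motor, Kif21a and Tubg1 overlapped between genotypes in inputs and in IP and were not called in any of these comparisons.

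**Figure D3:**
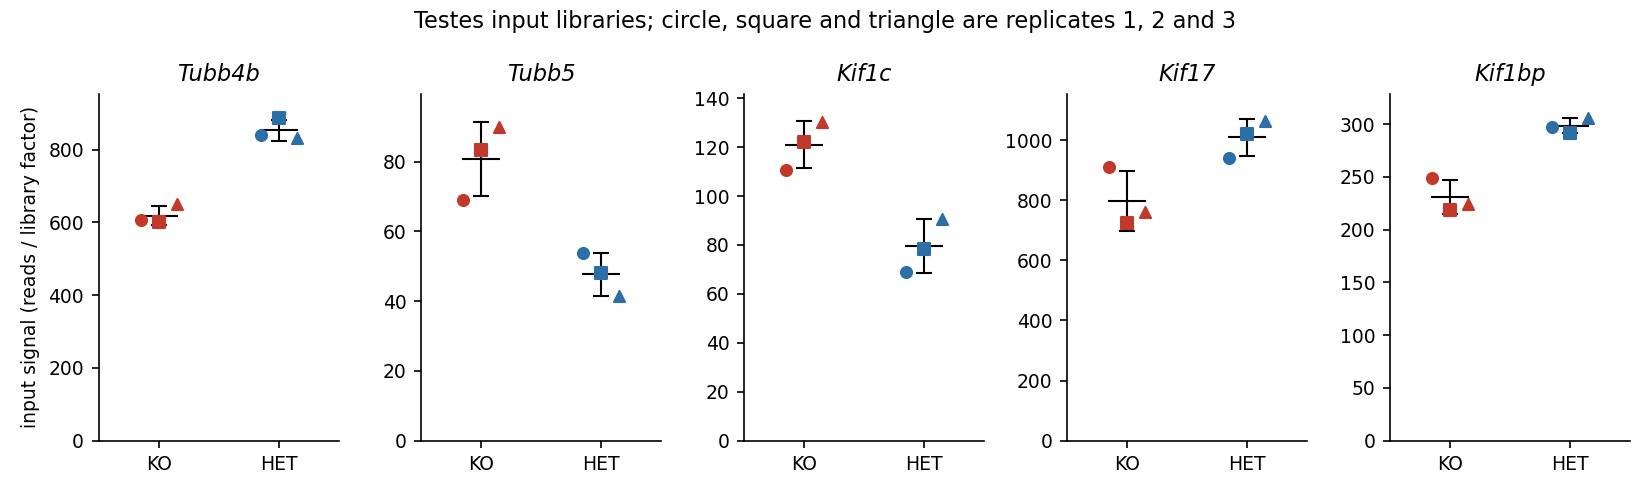
Input signal of the 5 genes called between KO (red) and HET (blue) testes is plotted per library, with the mean and SD of 3 libraries in black. The 3 values of one genotype lie clear of those of the other for every gene, though Kif17 comes as near as 911 in KO and 941 in HET.

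These 5 calls rest on how the spread was estimated. All 5 were lost when the variance was not allowed to depend on the signal and when it was pooled over all 12 testes libraries, settings under which 33 and 25 genes of the whole table were called in place of 1052. The call of Tubb4b held without any of the 6 libraries (log2 fold -0.50 to -0.43). The Tubb5 call was lost without HET replicate 3 (limma BH-adjusted p = 0.0866) or KO replicate 2 (0.0777) or 3 (0.0801), and the Kif1c call without HET replicate 1 (0.0724) or 2 (0.0605) or KO replicate 2 (0.0792) or 3 (0.0836). The calls of Kif17 and Kif1bp were lost without any library except KO replicate 1, at a limma BH-adjusted p of 0.0525 to 0.158.

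Germ cell markers moved with genotype beside these genes, and their part in the results was not tested. The summed signal of 10 round spermatid markers was 3568 to 3954 in KO inputs, against 4635 to 4995 in HET inputs, and that of 10 elongating spermatid markers 13323 to 13656 in KO, against 15396 to 17218 in HET. The sum of 9 spermatocyte markers was 1915 to 2069 in KO, against 1590 to 1759 in HET, and that of 8 spermatogonial markers 279 to 299.5 in KO, against 228 to 232 in HET. In the IP libraries the round spermatid sum was 3927 to 4218 in KO, against 6516 to 7901 in HET, and the elongating spermatid sum 14647 to 15022 in KO, against 23267 to 45242 in HET. In inputs, 3 of 9 tested round spermatid markers and 1 of 8 elongating spermatid markers were called as lower, where 6.01% of all genes were. Of the spermatocyte markers 2 of 9 were called as higher, and of the spermatogonial markers 0 of 6, where 3.32% of all genes were.

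Pcif1 lies on chromosome 2, as do 6 of the genes, Kif3b, Kif5c, Kif16b, Kif18a, Tubb1 and Tubb4b, and the founders carried both C57BL/6J and DBA/2J alleles. Of all genes tested in testes inputs, 9.28% were called on chromosome 2 and 9.06% on the chromosomes other than 2 and 17. On chromosome 17, which holds Tubb5, Tubb4a and Kif6, 13.9% were called. Whether linked alleles bear on these genes was not tested. Kif16b, a kinesin-3 of early endosomes, had input signals of 44.3, 42 and 63 in KO, against 79.8, 62.8 and 77.3 in HET, and was not called (log2 fold -0.57, limma BH-adjusted p = 0.0806).

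In brain input RNA none of 40 kinesin and tubulin genes was called between KO and WT by limma, against 0.255% of all genes (0.176% higher and 0.0784% lower), and 8 had an unadjusted p below 0.05, against 1606 of all 15298 genes. Kif17 came closest, with 61, 41.6 and 45.4 in KO inputs, against 106, 115 and 100.2 in WT inputs (log2 fold -1.12, SE 0.19, limma BH-adjusted p = 0.122). Kif2a, a kinesin-13 that trims axon branches, had 359, 507 and 404 in KO and 242, 209.8 and 250.4 in WT (log2 fold 0.84, SE 0.15, limma BH-adjusted p = 0.142). Tubb4b had 1342, 1294 and 1305 in KO and 1011, 1081 and 1007 in WT (log2 fold 0.35, SE 0.07, limma BH-adjusted p = 0.196). The 3 genes did not overlap between genotypes, but the share of all genes without overlap was not counted. Kif17 was thus lower in the KO inputs of both tissues, called in testes only, and Tubb4b was lower in KO testes and had higher values in KO brain.

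Several abundant neuronal genes had input values that did not overlap between genotypes, without a call. The share of all genes without overlap was not counted, so this is not read as a difference. Tubb3, the neuron-specific beta tubulin, averaged 2161 ± 133 in KO and 2466 ± 154 in WT (SD, n = 3 each), and Tuba1a, the main alpha tubulin of young neurons, 7876 ± 141 in KO and 6976 ± 123 in WT. Kif5a, the neuronal kinesin-1, had 6954, 5434 and 6784 in KO and 7608, 8144 and 8419.7 in WT (log2 fold -0.34, limma BH-adjusted p = 0.386). Kif1a, a kinesin-3 that carries synaptic vesicle precursors, had 6114, 6183 and 6244 in KO and 5344, 5471 and 5610.2 in WT (log2 fold 0.17, limma BH-adjusted p = 0.429). Tubb2a had 4048, 4122 and 4003 in KO and 3584, 3732 and 3588 in WT (log2 fold 0.16, limma BH-adjusted p = 0.466). KO values lay below WT for Tubb3 and Kif5a and above WT for Tuba1a, Kif1a and Tubb2a. For Tubb3 the log2 fold was -0.19 (limma BH-adjusted p = 0.489) and for Tuba1a 0.17 (0.43).

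Tuba1c differed among the KO libraries. Its input signals were 204, 38.9 and 22.5 in KO brains, against 179, 184 and 193 in WT brains, and its footprints 715, 43.4 and 23.5 in KO, against 1071, 538 and 940.2 in WT. In each kind of library KO replicates 2 and 3 lay far below WT, and KO replicate 1 lay above the WT inputs and within the WT footprints. Neither comparison was called (limma BH-adjusted p = 0.479 and 0.435), and without KO input replicate 1 the input log2 fold was -2.60 with a limma BH-adjusted p of 0.046. Tuba1a and Tuba1b are close paralogs of Tuba1c, and reads could have been divided among them differently between libraries.

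Among brain footprints, 0 of 35 genes were called between KO and WT by limma, against 0.223% of all genes (0.146% higher and 0.0765% lower), and 5 had an unadjusted p below 0.05, against 1546 of all 14377 genes. For the footprint-to-input ratio, here called translational efficiency, 0 of 42 were called as differing between genotypes, against 0.188% of all genes (0.0908% higher and 0.0968% lower), and 5 had an unadjusted p below 0.05, against 1616 of all 16527 genes. The nearest was Kif13a (ENSMUSG00000021375, chromosome 13), a kinesin-3 of endosome and melanosome transport. It had 122, 169.9 and 146 footprint signal in KO, against 57.6, 47.3 and 45.4 in WT, with inputs of 294, 172 and 291 in KO, against 256, 182 and 294 in WT. The footprints were higher in every KO library while the inputs overlapped. The share of all genes with such a gap in footprints was not counted. The log2 fold of footprints was 1.52 (SE 0.23, limma BH-adjusted p = 0.101), and that of translational efficiency 1.48 (SE 0.36, limma BH-adjusted p = 0.247). In the authors' deposited table Kif13a stands at 1.50 with an adjusted p of 0.0375. It is the 1 gene of the 44 with an adjusted p that lies below 0.05, against 126 of all 16307 genes.

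Beta tubulin footprints were divided within WT. The summed footprint signal of the 8 beta tubulins was 25195, 27178 and 24941 in KO, against 42378, 23671 and 35481 in WT, and the summed input 11225, 11165 and 10987 in KO, against 10503, 10870 and 10646 in WT. WT replicates 1 and 3 lay above all KO libraries and WT replicate 2 below them. Tubb4a (ENSMUSG00000062591, chromosome 17), the beta tubulin of oligodendrocytes and some neurons, had footprints of 6091, 6624 and 6126 in KO, against 10914, 6119 and 9737 in WT. Tubb5 had 5809.5, 5971 and 5279 in KO, against 9416, 5172 and 7984 in WT. Tubb3 had 2889, 3238 and 2697 in KO, against 6750.1, 3184 and 5211 in WT. All 3 show the same order of WT libraries, as did Tubb2a and Tuba4a. WT replicate 2 was the lowest of the WT footprint libraries for 12 of 14 tested tubulins, 9 of 21 tested kinesins and 39.5% of all tested genes.

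Without WT footprint replicate 2, limma called 8 of 35 genes between KO and WT footprints, 6 lower and 2 higher, against 3.46% and 3.31% of all genes (6.77% in either direction). The lower ones were all tubulins: Tubb3 (log2 fold -1.02), Tubg2 (-0.99), Tubb4a (-0.72), Tubb5 (-0.61), Tubb2a (-0.60) and Tuba4a (-0.49). Kif13a (1.48) and Kif21a (0.81), a kinesin-4 that restrains microtubule growth, were higher, and the limma BH-adjusted p of these 8 lay between 0.0175 and 0.0451. For translational efficiency the same omission called 7 of 41, against 2.66% lower and 2.66% higher of all genes (5.32% in either direction), namely Tubg2, Tubb3, Tubb4a, Tubb2a and Tubb5 as lower and Kif21a and Kif3b, a kinesin-2 motor, as higher (limma BH-adjusted p of 0.00822 to 0.0237). Leaving out any other library called 0 to 18 genes of the whole table for footprints and 15 to 32 for translational efficiency, against 956 and 874 without this library. Which of the WT libraries is typical cannot be told from 3. The omitted library was the lowest of WT for 12 of 14 tested tubulins, so leaving it out raises the WT tubulin values. The WT libraries left hold AY036118 at 25.8% and 13.9% of their signal, and all KO libraries have it at 0. Genotype and this difference between libraries cannot be told apart in these fits.

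**Figure D4:**
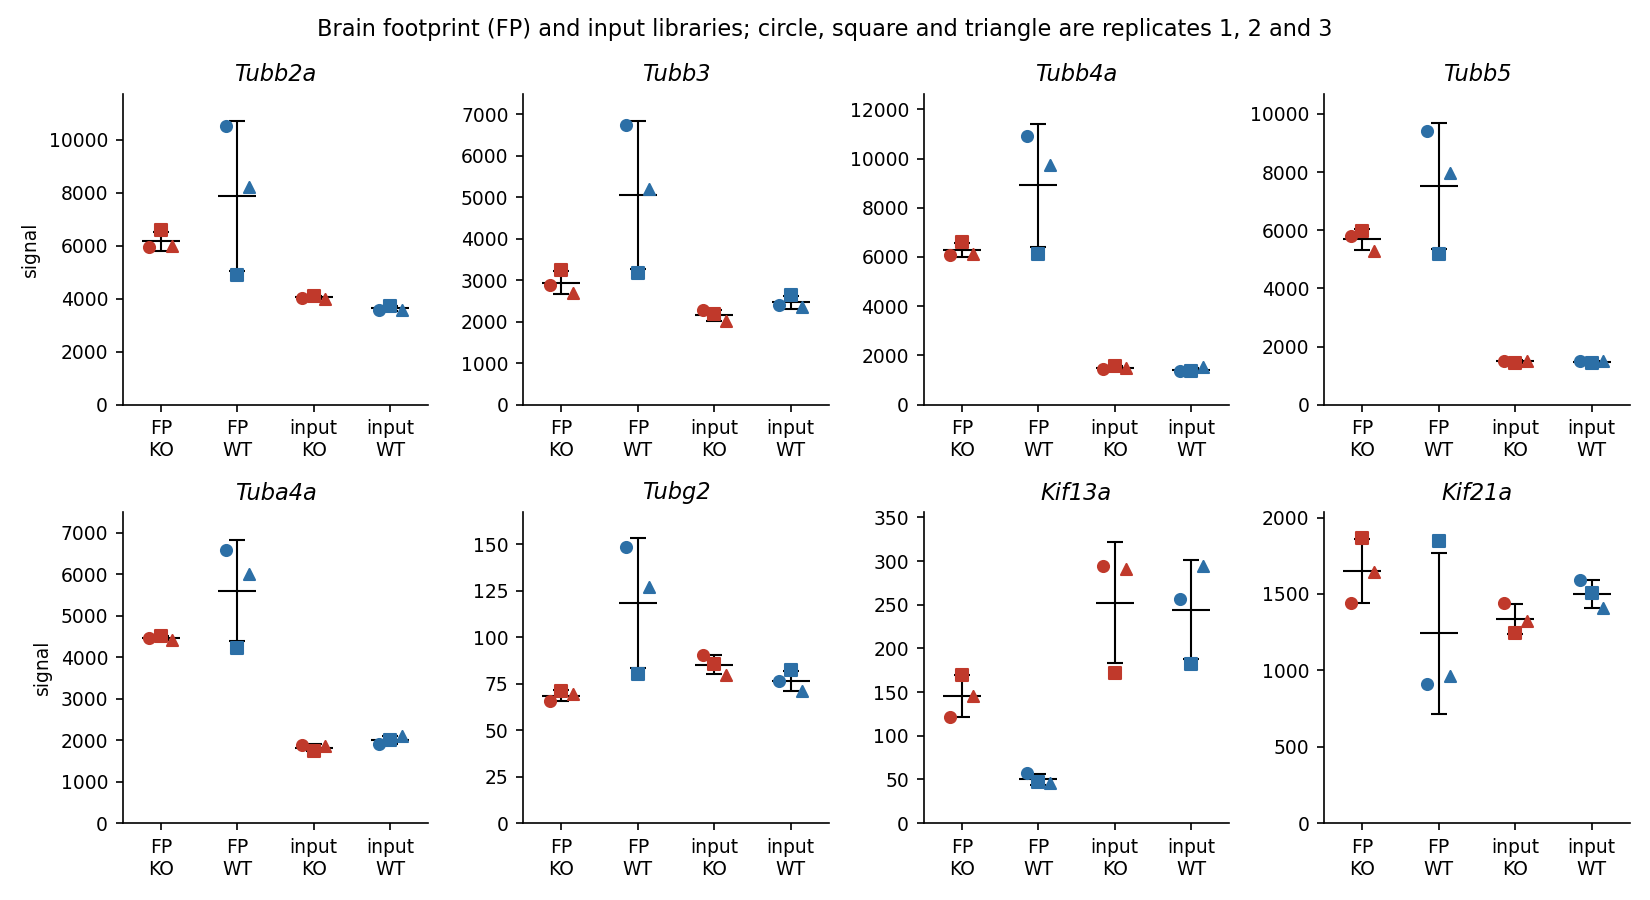
Signal of 8 genes is plotted for each brain footprint (FP) and input library, KO in red and WT in blue, with the mean and SD of 3 libraries in black. For the tubulins, WT footprint replicate 2 (square) is the lowest of WT and lies near the KO libraries, with WT replicates 1 and 3 above them, whereas the Kif13a footprints of all 3 KO libraries lie above those of WT.

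Oligodendrocyte markers also moved with genotype in brain, and their part in the values of Tubb4a and the other tubulins was not tested. The summed signal of 7 such markers was 30791 to 32936 in KO inputs, against 20876 to 22017 in WT inputs, and 60931 to 68044 in KO footprints, against 34881 to 51406 in WT footprints. Of 7 tested in inputs, 1 was called, as higher, where 0.176% of all genes were. For 7 astrocyte markers the sum was 14351 to 14658 in KO inputs, against 11945 to 13488 in WT inputs, and 0 of them were called. The sum of 8 neuronal markers was 21298 to 21985 in KO inputs, against 20752 to 21555 in WT inputs, and that of 7 microglial markers 700.2 to 782 in KO, against 897 to 991 in WT.

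Footprints were also set against input within each genotype. Among 42 genes, 10 were higher and 9 lower in KO footprints, where 24.0% and 28.4% of all genes were (52.4% in either direction), and 15 were higher and 8 lower in WT footprints, where 25.2% and 29.1% were (54.3% in either direction). These counts depend on the scaling of the libraries: with equal totals over all genes 4 were higher and 20 lower in KO and 4 and 22 in WT, and with equal totals over protein-coding genes 8 and 11 in KO and 11 and 13 in WT. Under the deposited scaling all 7 tested beta tubulins had a positive fold in both genotypes, and 5 were called in KO and 6 in WT. Genes with kinesin names, Kif1bp included, were called 2 higher and 7 lower of 28 in KO and 5 higher and 6 lower of 28 in WT. Such a ratio also carries the length and fragmentation of each transcript, so it compares libraries for 1 gene, not genes with each other.

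Tubb4a had inputs of 1435, 1575 and 1491 in KO and 1379.8, 1384 and 1510.5 in WT, so that its footprints exceeded its inputs in every library, with a log2 fold of 2.06 in KO (SE 0.17, limma BH-adjusted p = 2.4e-06) and 2.60 in WT (SE 0.17, limma BH-adjusted p = 3.6e-07). The folds of the other beta tubulins in KO and WT were 1.93 and 2.30 for Tubb5, 1.42 and 1.69 for Tubb4b, 0.60 and 1.05 for Tubb2a, 0.97 and 0.81 for Tubb2b and 0.44 and 0.97 for Tubb3, and the KO fold of Tubb3 was not called. Tubb6 was tested and not called in either genotype. Gamma tubulin Tubg1 had folds of 0.76 in KO and 1.41 in WT, both called, and Tubg2 had -0.31 in KO, not called, and 0.58 in WT, called.

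The alpha tubulins split. Tuba4a had log2 folds of footprint over input of 1.29 in KO and 1.46 in WT, and Tuba8 0.77 in KO and 0.51 in WT. Tuba1a was lower in footprints, with footprints of 3829, 4098 and 4072 in KO and 3728, 2804 and 3528 in WT, against inputs of 7833, 7761 and 8033 in KO and 6885, 6926 and 7116 in WT. Its log2 fold was -0.98 in KO and -1.07 in WT, and that of Tuba1b -0.99 in KO and -1.05 in WT. All 4 were called in both genotypes. Tuba1c was called in neither.

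Among genes with kinesin names called in both genotypes, Kif1a and Kif1bp were higher in footprints than in input. Their log2 folds were 0.96 for Kif1a and 1.20 for Kif1bp in KO and 0.83 and 1.24 in WT. Kif24, a centriolar kinesin-13, was the lowest, with footprints of 2.63, 8.93 and 0 in KO and 1.94, 0.658 and 1.37 in WT, against inputs of 57.6, 89.6 and 85.6 in KO and 55.5, 24.6 and 66.3 in WT. Its log2 folds were -4.55 in KO and -4.35 in WT. All footprint values of Kif24 lay below the filter of 10, so it was tested only through its inputs. A lower call was thus favoured by the filter, and the size of these folds is not well measured. Again in KO and WT, Kif1c had -2.54 and -2.57, Kif16b -2.06 and -1.97, Kif13a -0.76 and -2.24, Kif3c -1.10 and -1.11 and Kif3b -0.72 and -1.28. Kif2a, Kif3a and Kif1b were called as higher in WT alone and Kif27 as lower in KO alone. None of these had a called difference between genotypes. The KO footprints of Kif27, at 4.65, 10.1 and 6.71, also lay near or below the filter. Some calls were lost on leaving out any 1 of several libraries. In KO those of Kif13a, Kif27, Tubb2a and Tubg1 were each lost on leaving out any of 4, 3, 6 and 5 of the 12 libraries, and in WT those of Kif3a, Tuba8 and Tubg2 on leaving out any of 9, 5 and 11.

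Scaling every library to an equal total of all genes, in which ribosomal RNA weighs heavily, moved the median fold of all genes to -0.89 in KO and -1.14 in WT, where it had been -0.09 in both. It lowered the fold of every kinesin and tubulin gene called here, and 3 of the genes called higher in KO and 8 of those called higher in WT changed sign, among them Tubb2a, Tubb2b, Tubb3 and Kif1a in WT. With that scaling 1515 genes of the table were higher and 8832 lower in KO footprints and 1282 and 10046 in WT, where the deposited scaling gave 3962 and 4692 in KO and 4168 and 4809 in WT. Tubb4a, Tubb5, Tubb4b and Tuba4a stayed higher under every alternative in both genotypes.

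**Figure D5:**
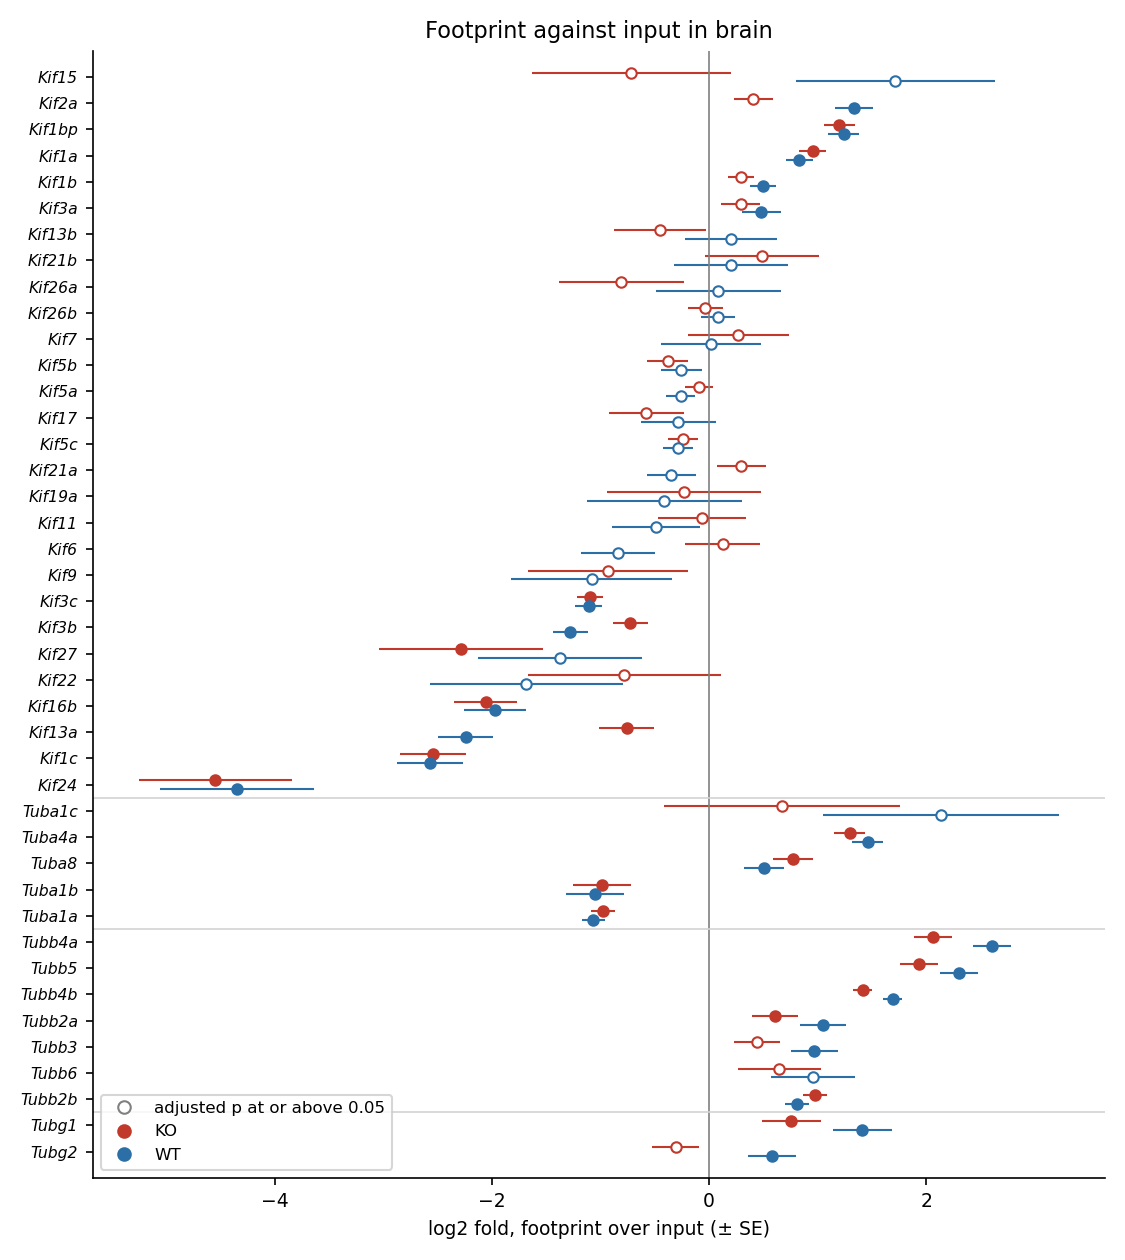
The log2 fold of footprint over input in brain is plotted for the 42 tested kinesin and tubulin genes, KO in red and WT in blue, with bars for the SE of the limma fit and filled symbols for a BH-adjusted p below 0.05. Grey lines part the families; under the deposited scaling the 7 beta tubulins lie right of 0 in both genotypes, Tuba1a and Tuba1b left of 0, and Kif24 furthest left at -4.55 in KO and -4.35 in WT.

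Other genes of the microtubule pathway were counted from lists of 136 genes in all. In testes inputs 5 of 108 tested rose and 8 fell in KO, where 3.32% of all genes rose and 6.01% fell. Of 18 tubulin folding genes 1 rose and 2 fell, and the fallers were Pfdn6, a prefoldin subunit (log2 fold -1.25), and Tbce, the tubulin cofactor E that joins alpha to beta tubulin (-0.82). In the difference of IP over input between genotypes, 4 of 111 were higher and 9 lower, where 3.72% of all genes were higher and 6.25% lower. Of 19 tubulin folding genes 1 was higher and 5 were lower. The lower ones included Tbce (-2.64), Pfdn5 (-1.53) and Cct3 (-1.46), a subunit of the chaperonin that folds tubulins. Tbce had 0 to 7.48 in KO IP, against 32 to 54.5 in HET IP. These KO IP values lay below the filter of 10, so the size of the Tbce difference is not well measured. Cct3 had 528 to 628 in KO IP, against 1520.1 to 1851 in HET IP, with inputs of 1291 to 1383 in KO and 1364 to 1434 in HET. The lower genes also included Actr1b (-1.35), a filament subunit of the dynein partner dynactin. In brain none of 121 in inputs, 122 in footprints and 125 for translational efficiency was called between KO and WT. Set against input, 49 of these 125 genes were higher and 22 lower in KO footprints, and 52 and 27 in WT footprints, where 24.0% and 28.4% of all genes were in KO and 25.2% and 29.1% in WT. Of 20 tubulin folding genes 14 were higher and 0 lower in KO, and 12 and 2 in WT. Of 24 dynein and dynactin genes 15 were higher and 3 lower in KO, and 13 and 3 in WT. Of 31 microtubule-associated and plus-end genes 14 were higher and 6 lower in KO, and 16 and 6 in WT. The gamma-tubulin ring, tubulin modification and severing lists held more lower than higher genes in both genotypes. These list counts hold for the deposited scaling and were not repeated under the others.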

How the data were processed

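The 24 libraries used here form 8 groups of 3, and the other 18 libraries of the series are not analysed here. The authors deposited a signal per gene and library, which is not a raw count. In testes every value was a whole multiple of the value of 1 read (tolerance 0.01), so reads were recovered, whereas few brain values were, and a value of 0 there can be a failed estimate. The authors also deposited log2 fold changes and adjusted p-values, quoted by that name. Of the tools, Salmon 0.12.0, DESeq2 1.25.10, DESeq, STAR and R 3.6.2 appear in the submitters' processing notes, with no step assigned to them. For genome build, annotation, filters and strand nothing was found in the sources.

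Signal was taken as log2(signal + 1) after keeping genes with signal of at least 10 in 3 libraries, and fitted with limma 3.58.1 (R 4.3.3, trended variance), adjusting p over all genes by Benjamini-Hochberg with a threshold of 0.05. KO against HET or WT used the 6 libraries of that kind, and IP against input, footprint against input and their differences between genotypes used all 12 libraries of the assay. The script was tested on simulated data. On recovered testes reads, edgeR 4.0.16 and DESeq2 1.42.0 were run as alternatives, beside other pseudocounts, filters, scalings, variance estimates and leaving out each library. Genes were named if called, up to 10 per direction, with the main transport kinesins, tubulins and genes on chromosome 2 in any case. The members and lists were chosen with earlier results of these data known.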

Additional observations from a re-analysis of the deposited data

Results flagged for a closer look

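Tuba3a is singled out by the test of the difference itself: its log2 fold of IP over input in testes was -0.30 in KO and 0.51 in HET, a difference of -0.82 (limma BH-adjusted p = 0.0334), with all 3 KO IP values below all 3 HET IP values. The share of all genes without overlap between these IP libraries was not counted, and 26.3% of all genes were called between them. The call of the Tuba3a difference was kept in 8 of 21 alternatives. Spermatid markers were also lower in KO IP, and their part in the difference was not tested.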

How the results depend on the processing

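The labels give these libraries no replicate numbers, so no paired analysis was made. The numbers used here follow the sample order. Whether libraries with the same number share an animal was not established, and the fits leave any such pairing out. Of the 5 genes called in testes inputs, 3 were called after scaling to equal totals over all genes and 3 over protein-coding genes, and 0 without the variance trend or with the spread of all 12 libraries. Of all genes, these scalings called 581 higher and 463 lower, and 634 and 432, where the deposited scaling called 374 and 678. The 4 calls between IP libraries became 2 without the trend and 11 with the 12-library spread. The 1 difference of IP over input became 0 with no filter, 0 with TMM and 0 without the trend. Brain footprints, with 0 calls, gave 1 with the 12-library spread. The cause was not tested.

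Leaving out 1 library gave 1 to 5 calls in testes inputs, 1 to 7 between IP libraries, 7 to 13 for IP against input in KO and 6 to 17 in HET, and 0 to 2 for their difference. In brain it gave 0 to 1 for inputs, 0 to 8 for footprints, 16 to 23 for footprint against input in KO and 20 to 25 in WT, and 0 to 7 for translational efficiency. Scaling to equal totals over all genes reversed the footprint fold of Tuba8 (-0.050), Tubg1 (-0.063) and Tubb2a (-0.23) in KO, and of Kif1a (-0.24), Kif3a (-0.59), Kif1b (-0.58), Tuba8 (-0.56), Tubg2 (-0.48), Tubb2b (-0.27), Tubb2a (-0.027) and Tubb3 (-0.11) in WT. Scaling over protein-coding genes gave 3157 genes higher and 5583 lower in KO footprints (median -0.29) and 3191 and 5935 in WT (median -0.35). For IP against input in HET, the scalings over all and protein-coding genes gave 1453 higher and 2253 lower and 1312 and 2433, against 1822 and 1910 as deposited. In KO the protein-coding scaling gave 2055 and 3595, against 2632 and 3005, with a median of -0.21. Low testes IP depth limits genes with few reads, such as Kif5c.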
